A study of Mus musculus with 3 samples.

Results

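The 40 collagen chain genes of a mouse BRAF-mutant melanoma were followed here across every cell cluster of 3 tumors. Members were the rows of the deposited count tables whose mouse symbol had the form of a collagen alpha chain (Col, a type number, the letter a and a chain number) and that held at least 20 unique molecular identifiers (UMIs, each standing for 1 captured RNA molecule) over all cells. Of 44 genes with such a symbol, 40 met this minimum, among 17983 genes of the series that did. The other 4, Col10a1, Col19a1, Col22a1 and Col6a4, held 3 to 10 UMIs each and were left out. By textbook class, 11 members encode fibrillar chains, 9 encode chains of basement membranes, and 20 encode the remaining types.

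The tumors came from mice carrying Braf LSL.V600E and Tyr.CreER among their alleles, on a C57BL/6J background. The model is used with or without a Rosa26 LSL.tdTomato reporter, and reporter transcripts were present in tumor cells of all 3 tumors (tWPRE at 2527, 1346 and 4225 counts per 1000000 in the untreated, regressed and progressed one, against 34.2 to 42.1 in stroma). The Tyr promoter drives the Cre in melanocytes, and 4-OH tamoxifen on the flank skin started the tumors. Droplet single-cell RNA sequencing was done on 3 groups with 1 library each: an untreated tumor, a tumor that had regressed under the BRAF inhibitor vemurafenib, and a tumor that had progressed under it. Tumors were dissociated with collagenases and trypsin, so matrix-bound cells are seen only as far as they came free. With 1 library per group there is no test between tumors: every interval printed is a 95% interval for counting error alone (exact Poisson for a level, exact binomial for a ratio or a share), and tumor, treatment and library cannot be told apart.

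Collagens are the main structural proteins of the extracellular matrix. Fibrillar chains form the cables that give skin and desmoplastic tumors their tensile strength, type IV chains form the network of basement membranes under epithelia and around vessels, and the remaining types link fibrils, anchor cells or cap fibril surfaces. Fibroblasts and pericytes are their best known source in a tumor. The study asked how the stroma and its matrix change during response to and relapse from vemurafenib. It used collagen expression when it named the non-immune stroma clusters, so the levels by cluster are a description.

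Cells numbered 4095 in the untreated library, 3726 in the regressed and 4849 in the progressed one, at median depths of 4496, 2658 and 4566 UMIs. No cell identifier was shared between libraries. The authors' 25 clusters were used as deposited, among them 10 of non-immune stroma (Stroma1 to Stroma10), 7 of immune cells, 2 of tumor cells and 1 of blood vessel cells. The clusters followed the tumors closely: Stroma10 held 1537 regressed cells against 4 untreated and 7 progressed, and made up 80.1% of the regressed stroma cells. Stroma9 held 310 regressed cells against 0 and 1, Stroma1 held 472 untreated cells and 1 regressed, and Stroma6 held 1255 progressed, 83 untreated and 13 regressed. The 14 stroma markers summed to 20510, 25240 and 22960 UMIs per 1000000 UMIs (CPM) in untreated, regressed and progressed stroma, with none at 0. In the regressed library, however, haemoglobin made up 3.96% of all UMIs against 0.272% and 0.00848%, and the 4 red blood cell markers summed to 1582 CPM in its stroma against 37.5 and 0.625. The 6 keratinocyte markers summed to 1017 CPM there, against 191 and 271, beside 1179, 236 and 385 CPM in immune cells. Their part in the stroma results was not tested.

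Regulatory sequence is shown for 4 members that carry the findings below: Col1a2 and Col3a1 as the most abundant chains, and Col27a1 and Col17a1 as chains that stood out in a few clusters outside the stroma. The windows are RefSeq promoter windows on GRCm38.p6, cut back to the longest stretch within the 250 bases before the RefSeq start that holds no annotated UTR (GENCODE vM21). They lie at chr6:4505370-4505492 (plus strand), chr1:45311288-45311537 (plus strand), chr4:63215162-63215411 (plus strand) and chr19:47692095-47692292 (minus strand). Capitals mark letter matches to the searched motifs on either strand.
Col1a2: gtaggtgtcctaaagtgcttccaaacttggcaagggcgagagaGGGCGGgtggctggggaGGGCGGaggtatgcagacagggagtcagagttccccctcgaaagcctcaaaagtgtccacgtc
Col3a1: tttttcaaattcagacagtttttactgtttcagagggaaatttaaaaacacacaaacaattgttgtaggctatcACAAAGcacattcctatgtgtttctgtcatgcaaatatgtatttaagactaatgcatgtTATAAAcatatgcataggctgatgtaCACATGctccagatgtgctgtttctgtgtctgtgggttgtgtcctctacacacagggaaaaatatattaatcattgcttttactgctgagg
Col27a1: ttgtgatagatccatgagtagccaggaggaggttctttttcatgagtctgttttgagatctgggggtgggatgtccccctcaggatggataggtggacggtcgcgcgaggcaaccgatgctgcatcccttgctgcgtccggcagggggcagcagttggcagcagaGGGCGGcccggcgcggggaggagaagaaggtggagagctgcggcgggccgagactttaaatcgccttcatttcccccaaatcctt
Col17a1: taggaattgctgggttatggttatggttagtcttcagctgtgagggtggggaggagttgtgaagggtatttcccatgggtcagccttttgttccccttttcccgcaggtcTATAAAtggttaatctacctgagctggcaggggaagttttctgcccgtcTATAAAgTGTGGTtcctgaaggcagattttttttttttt

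In all 7 short motifs were searched on both strands over the full 250 bases of each window. RefSeq gave a window for 32 of the 40 members, 35 windows in all because a few genes have more than 1 start. The GC box letters GGGCGG were in 21 of these, against 32.7% of all 32851 windows. CCAAT was in 12 windows (34.3%, against 33.9% of all). TATAAA was in 4 (11.4%, against 12.4%). CATGTG was in 3 (8.57%, against 12.3%), as were ACAAAG (against 16.5%) and TGTGGT (against 14.1%). TGACTCA was in 1 (2.86%, against 4.46%). These are matches of letters in a window and say nothing of binding. In these letters the GC-rich Col1a2 stretch held GGGCGG 205 and 188 bases before the start, whereas Col3a1 held TATAAA 117 bases before it and no GGGCGG.

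Collagen RNA was a large part of the stroma transcriptome and was dominated by 3 chains. Members held 1428838 UMIs, of which fibrillar chains took 77.2%, basement membrane chains 9.63% and the others 13.1%. Col1a2, Col3a1 and Col1a1, the chains of type I and type III collagen, took 73.2% between them. Because the assay counts 3' ends, each transcript can give a UMI once whatever its length, and CPM values of different genes are therefore set side by side without dividing by length. Summed over all members, collagen stood at 38096 CPM in untreated stroma, 23441 in regressed stroma and 35624 in progressed stroma. For 29 of the 40 members at least 80% of the UMIs lay in stroma cells. The other 11 were Col16a1, Col17a1, Col20a1, Col27a1, Col7a1, Col4a5, Col13a1, Col4a6, Col9a3, Col9a1 and Col11a2. Stroma cells also held most UMIs of any gene: 14077230 of 22202192 in the untreated library, 6424698 of 12413268 in the regressed and 17590557 of 26948940 in the progressed one. The share of all genes at or above 80% was not counted.

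**Figure D1:**
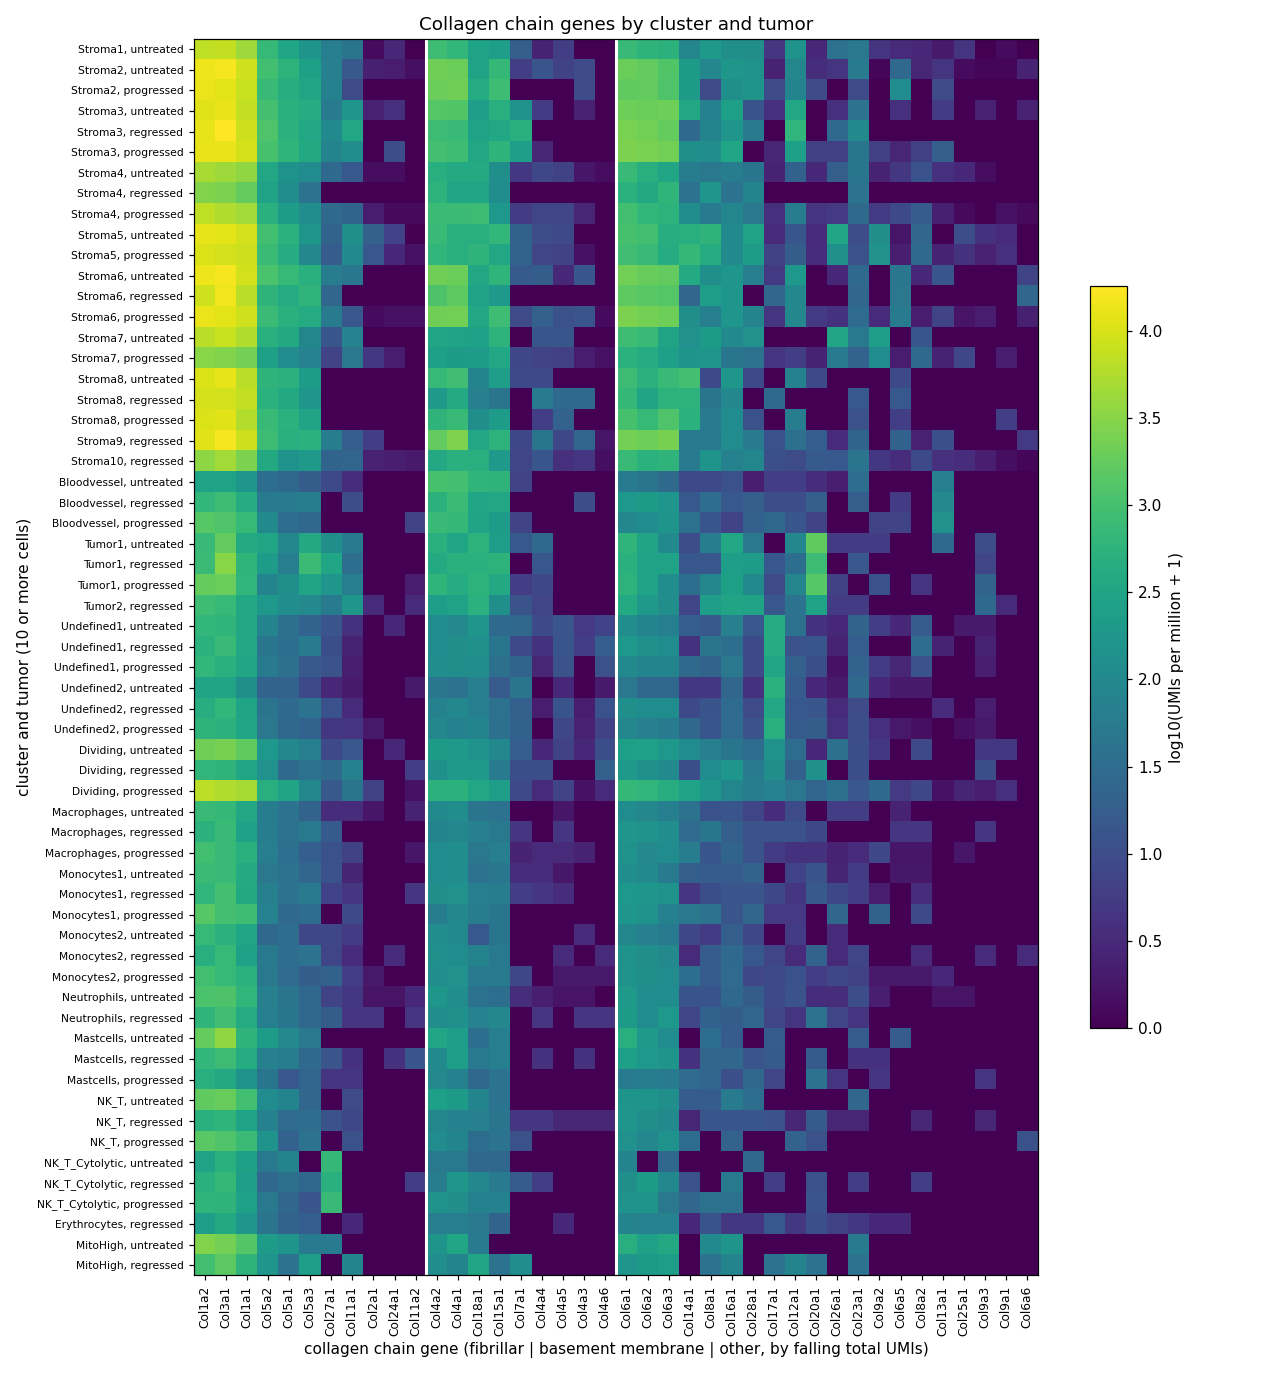
Level of each of the 40 collagen chain genes (columns, by class) in every cluster and tumor with at least 10 cells (rows), as log10(CPM + 1). Col1a2, Col3a1 and Col1a1 at the left are the brightest genes in all stroma rows and remain visible in immune rows, while Col27a1, Col20a1, Col17a1 and Col13a1 are bright in only a few rows.

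Where 3 levels are listed without labels, their order is untreated, regressed, progressed. Immune cells of the same tumor served as the comparison level, which is not a floor. Untreated Col1a2 stood lower in vessel cells (295 CPM) and in Undefined2 (306 CPM) than in immune cells. For Col27a1 the highest cluster was itself an immune one, as given below. Leukocytes are not known as main makers of type I or type III collagen, yet their Col1a2 level was 916 CPM untreated, 565 regressed and 929 progressed, and their Col3a1 level 911, 791 and 738 CPM. Free RNA from lysed cells can give such UMIs in droplet data, and its part here was not tested. Fibrillar chains were 12.4, 9.35 and 11.9 times as high in stroma as in immune cells of the same tumor, basement membrane chains 10.0, 6.22 and 9.45 times, and the other chains 10.2, 6.10 and 9.68 times. By share of cells the separation looks smaller. Col1a2 had a UMI in 99.7% of 2628 untreated stroma cells and in 72.9% of 1053 untreated immune cells (median depths 4654 and 3651 UMIs). After each cell was thinned to 1000 UMIs, which left out 29 and 27 shallower cells, these shares were 97.8% (97.1 to 98.3) and 34.9% (32.0 to 37.9). In regressed cells the thinned Col1a2 shares were 92.2% of 1733 stroma cells and 39.4% of 787 immune cells, and in progressed cells 96.4% of 3400 and 38.1% of 665 (185, 170, 22 and 18 cells left out).

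Type I and type III chains, which co-assemble into the main fibrils of skin, were lowest in regressed stroma as a whole. Col1a2 (Entrez 12843, GRCm38 chr6:4505618-4541543) stood at 10686 CPM in untreated, 5344 in regressed and 10205 in progressed stroma. Col3a1 (Entrez 12825, chr1:45311538-45349706) stood at 11297, 7258 and 8815 CPM. Col1a1, the partner of Col1a2 in type I collagen, stood at 6804, 3996 and 7198 CPM. Against untreated stroma the log2 ratios in regressed stroma were -0.9998 for Col1a2 (-1.02 to -0.98), -0.64 for Col3a1 (-0.65 to -0.62) and -0.77 for Col1a1 (-0.79 to -0.75). In progressed stroma they were -0.07, -0.36 and 0.08. Both comparisons share the untreated tumor.

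These lower levels lay in Stroma10, but not there alone. Set against untreated cells of the same cluster, regressed Col1a2 was lower in Stroma4 (2788 against 5042 CPM), Stroma6 (9039 against 14223) and Stroma8 (9708 against 10941). In Stroma3 it was higher (12637 against 11375 CPM). Each of these regressed values rests on 12 to 20 cells. Within the regressed tumor Col1a2 stood at 3369 CPM in Stroma10 but at 11794 in Stroma9 and 12637 in Stroma3, and Col3a1 at 4612, 16028 and 18021 CPM. When Stroma10 was left out of the sums, the log2 ratios of regressed to untreated stroma turned positive, to 0.10 for Col1a2, 0.45 for Col3a1 and 0.28 for Col1a1. The 10 leading genes of Stroma10 held no collagen but included Uty and Kdm5d, which lie on the Y chromosome. All members summed to 15269 CPM in Stroma10, which lay between the regressed (10829 CPM) and untreated (16717 CPM) levels of Stroma4. Since Stroma10 was found almost only in the regressed library, a lower level in its cells and a different mix of cells cannot be told apart from the library.

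The fibrillar class as a whole repeated this. Its sum was 30322 CPM in untreated, 17636 in regressed and 27590 in progressed stroma, a log2 ratio to untreated of -0.78 (-0.79 to -0.77) when regressed and of -0.14 (-0.14 to -0.13) when progressed. Without Stroma10 the first became 0.29. Of the 10 stroma clusters, 4 held at least 10 cells in every tumor (Stroma3, Stroma4, Stroma6 and Stroma8), though with only 12 to 20 regressed cells each. Within them the fibrillar log2 ratio of regressed to untreated was 0.30 in Stroma3, -0.82 in Stroma4, -0.38 in Stroma6 and -0.19 in Stroma8, a mean of -0.27. For progressed to untreated it was 0.18, 0.44, -0.19 and -0.07, a mean of 0.09, opposite in sign to the sum over all stroma. The range over clusters was wider than these differences: in untreated stroma fibrillar sums ran from 13442 CPM in Stroma4 to 41182 in Stroma6.

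**Figure D2:**
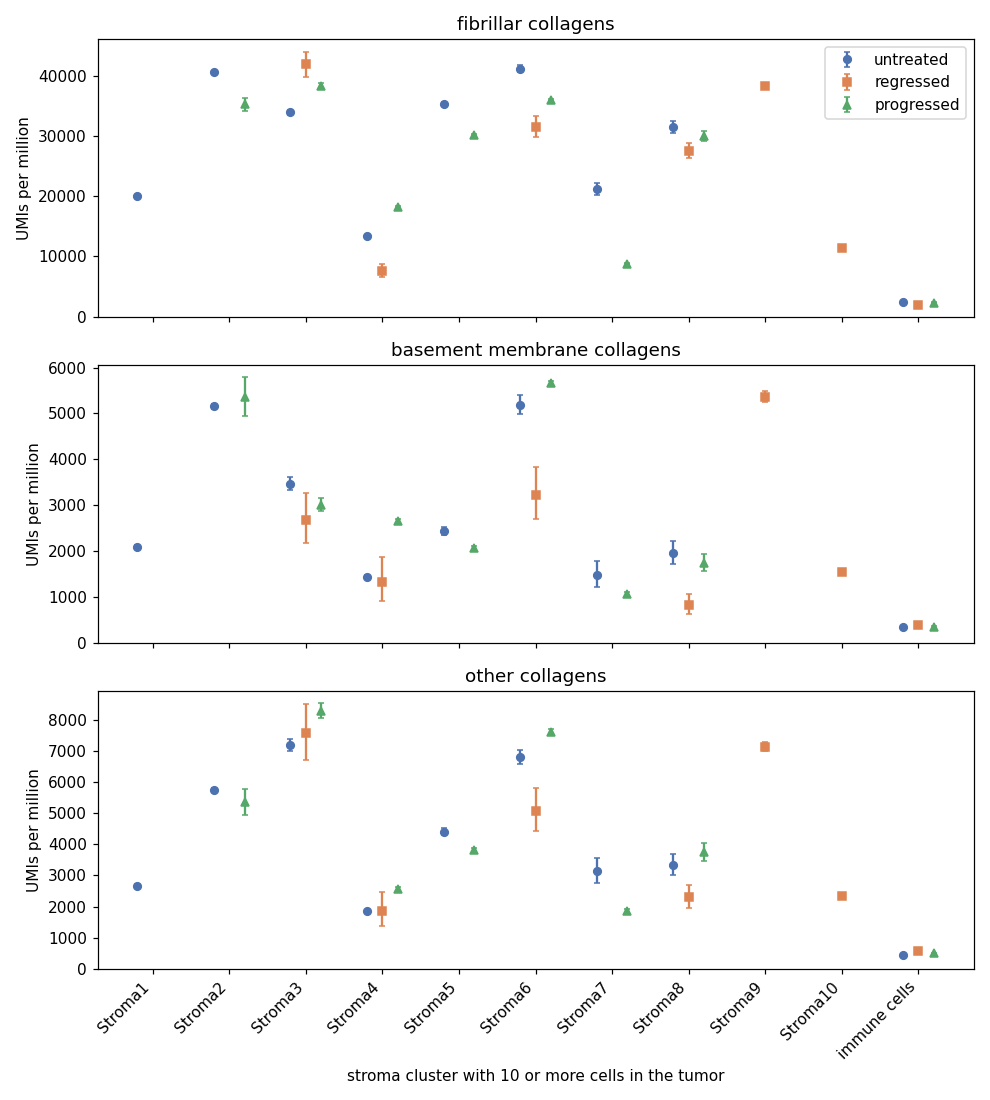
Summed CPM of the fibrillar, basement membrane and other collagen genes in each stroma cluster with at least 10 cells in a tumor, and in immune cells, with 95% counting intervals. Fibrillar levels are low in Stroma4, Stroma10 and progressed Stroma7 (7637 to 18210) and high in Stroma2, Stroma3, Stroma5, Stroma6 and Stroma9 (30093 to 41861), and immune cells lie below every stroma cluster in each class.

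Among the minor fibrillar chains, the type V chains, which set fibril diameter from within, differed among themselves. Col5a2 stood at 783, 482 and 686 CPM and Col5a1 at 434, 223 and 381 CPM in untreated, regressed and progressed stroma. In regressed relative to untreated stroma the log2 ratio was -0.70 for Col5a2 and -0.96 for Col5a1. Col5a3, the third type V chain, stood at 220, 276 and 214 CPM, and was therefore higher in regressed stroma (log2 0.33, 0.24 to 0.41). Within the 4 shared clusters its mean was -0.43. Col11a1, a type XI chain abundant in cartilage and in some tumor fibroblasts, stood at 39.8, 23.2 and 51.9 CPM in stroma, with 39.7% of its UMIs in Stroma5. It reached 167, 352 and 120 CPM in Stroma3 of the 3 tumors. The regressed value rests on 13 UMIs in 12 cells (187 to 602 CPM), against 138 to 201 CPM in the untreated ones. Of the rare fibrillar chains, Col2a1, the cartilage fibril chain, had 153 UMIs, 64.1% of them in Stroma5, while Col24a1 and Col11a2 had 58 and 36.

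Type IV collagen, the network of every basement membrane, was high in both stroma and vessels, and its 2 main chains differed in the size of their change. Col4a1 (chr8:11198423-11312889) and Col4a2 (chr8:11312805-11449287) lie head to head and overlap by 85 bases in the gene annotation used, with RefSeq starts that place 22 bases in both transcripts. Reads were counted by strand. Their proteins join in a fixed ratio. Col4a1 stood at 1230, 972 and 1101 CPM and Col4a2 at 1389, 658 and 1151 CPM in untreated, regressed and progressed stroma. The log2 ratio of regressed to untreated was thus -0.34 (-0.38 to -0.30) for Col4a1 but -1.08 (-1.13 to -1.03) for Col4a2. Without Stroma10 these were 0.998 and 0.17, so the order of the chains held while both signs turned. Across the 21 stroma cluster and tumor sums with at least 10 cells, log2 levels of both chains had a Pearson r of 0.91. The sums share libraries and depth, and no p is given.

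In blood vessel cells, named by the study from endothelial genes, type IV chains stood at 7.62, 5.47 and 6.12 times the immune level of the same tumor, and fibrillar chains at 0.346, 1.13 and 1.53 times. The 7 endothelial markers summed to 5755 CPM in 74 untreated, 4454 in 48 regressed and 4769 in 28 progressed vessel cells, with none at 0. Col4a2 stood at 1053, 546 and 764 CPM there and Col4a1 at 968, 802 and 688 CPM. Summed type IV chains were 2021 CPM in untreated, 1357 in regressed and 1452 in progressed vessel cells, against 237 to 265 CPM in immune cells. The log2 ratio to untreated was -0.57 (-0.76 to -0.39) in regressed and -0.48 (-0.68 to -0.28) in progressed vessel cells. The second moved with the weighting of cells: at 1000 UMIs per cell it was -1.54, and with equal weight per cell -0.86. Vessel depth also differed, with medians of 9089, 3504.5 and 4089.5 UMIs.

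Types XV and XVIII, basement membrane collagens whose C-terminal fragments are known as angiogenesis inhibitors, were likewise high in vessels. Col18a1 stood at 614, 312 and 299 CPM in vessel cells and Col15a1 at 588, 359 and 223 CPM, so that each was highest in the untreated tumor. In stroma the order was otherwise for Col18a1: 329 CPM untreated, 431 regressed and 511 progressed, with log2 ratios of 0.39 (0.32 to 0.46) and 0.63 (0.58 to 0.68). The regressed value was -0.03 without Stroma10 and -0.13 as a mean over the 4 shared clusters. Stroma4 had the highest stroma level in the progressed tumor (836 CPM, against 405 in untreated Stroma4). Col15a1 stood at 465, 272 and 486 CPM in stroma.

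The whole basement membrane class summed to 3448 CPM in untreated, 2375 in regressed and 3291 in progressed stroma. Relative to untreated these were log2 ratios of -0.54 (-0.56 to -0.51) and -0.07 (-0.08 to -0.05). The first became 0.52 without Stroma10, and the second 0.16 over the 4 shared clusters. Stroma9, found only in the regressed library but for 1 cell, had the highest Col4a1 level of any cluster and tumor with at least 10 cells, 2684 CPM (2599 to 2772). The rarer type IV chains were all minor. Col4a4 stood at 8.45, 19.5 and 10.6 CPM in stroma and at 43.4 CPM in Stroma9, and its head-to-head neighbour Col4a3 at 4.33, 8.09 and 4.78 CPM. Col4a5 had 324 UMIs in all. Col4a6 had 80, of which 41.3% were in the cluster the study called Undefined1. Col7a1, the anchoring fibril chain of the skin's basement membrane, stood at 16.3, 9.49 and 19.0 CPM in stroma and was highest in Stroma3, at 147, 487 and 243 CPM. That regressed value rests on 12 cells.

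Type VI collagen, whose beaded filaments surround cells and bind basement membrane to fibrils, was the most abundant of the other collagens. Col6a1 stood at 1392, 1094 and 1467 CPM, Col6a2 at 1176, 866 and 1261 CPM and Col6a3 at 899, 996 and 1040 CPM in untreated, regressed and progressed stroma. Col6a1 and Col6a2 were lower in regressed than in untreated stroma (log2 -0.35 and -0.44) but Col6a3 was not (0.15, 0.10 to 0.19). Under trimmed-mean (TMM) scaling, which moves every regressed ratio by -0.25, the Col6a3 value was -0.10, and without Stroma10 it was 1.32. In Stroma9 Col6a3 reached 2417 CPM. Col6a5, a chain found in skin, had 638 UMIs, 52.5% of them in Stroma6. It stood at 46.4 CPM in untreated and 54.6 CPM in progressed Stroma6, against 14.6 and 20.7 CPM in all stroma. Regressed Stroma6 held 2 UMIs of it in 13 cells (48.2 CPM, 5.84 to 174), and all regressed stroma 6.69 CPM.

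Among the chains that decorate fibril surfaces (the FACIT types), Col14a1 and Col12a1 were low in regressed stroma. Col14a1, which lines fibrils in skin and tendon, stood at 201 CPM in untreated, 60.9 in regressed and 309 in progressed stroma. Relative to untreated, its log2 ratio was -1.73 (-1.88 to -1.57) in regressed and 0.62 (0.55 to 0.68) in progressed stroma. The regressed value was still -1.35 without Stroma10, but the progressed one was -0.75 as a mean over the 4 shared clusters. In the progressed tumor Col14a1 was highest in Stroma5 (683 CPM), which held 754 progressed, 165 untreated and no regressed cells. In Stroma8, marked by Pi16, it stood at 960, 558 and 521 CPM.

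Col12a1, a FACIT chain linked to tissue under tension, stood at 97.8, 18.2 and 58.0 CPM in stroma, a log2 ratio of -2.43 (-2.71 to -2.15) for regressed against untreated and of -0.75 for progressed. Without Stroma10, where it stood at 8.23 CPM, the regressed value was -0.99, and Stroma3 alone held 352, 622 and 252 CPM. The level in regressed Stroma3 rests on 23 UMIs in 12 cells (395 to 934 CPM). Col16a1, found near the surface of several cell types, stood at 143, 83.7 and 125 CPM in stroma but at 318, 287 and 262 CPM in tumor cells.

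Col9a2 is a cartilage FACIT chain, and it and Col26a1, known from testis and ovary, were highest in Stroma5 and Stroma7. Both are among the leading genes of Stroma5, so their level there describes how that cluster was drawn. Col9a2 stood at 125 and 143 CPM in Stroma5 and at 244 and 110 CPM in Stroma7 of the untreated and progressed tumors, and at 0.170 CPM and 0 CPM (up to 30.5, in 26 cells) in Stroma2. Col26a1 stood at 311 and 135 CPM in Stroma5 and at 334 and 58.8 CPM in Stroma7, and over all stroma at 44.0, 11.1 and 50.5 CPM. Over all stroma Col9a2 was 14.1, 2.96 and 58.3 CPM, so the log2 ratio was -2.26 (-3.02 to -1.58) when regressed, and 2.04 (1.82 to 2.27) when progressed stroma was set against untreated. Within Stroma5, the progressed and untreated levels were 143 and 125 CPM, and the number of Stroma5 cells was 754 against 165. The regressed library held no Stroma5 cell and 6 Stroma7 cells.

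Type VIII chains form short networks in vessels and cornea. Col8a1 stood at 154, 133 and 190 CPM in stroma, with 43.2% of its UMIs in Stroma5, and Col8a2 at 5.61, 6.54 and 15.8 CPM. Col28a1, a chain of nerve basement membranes, stood at 127, 79.2 and 109 CPM in stroma but at 45.5, 265 and 102 CPM in tumor cells, where the regressed value came mostly from Tumor2 (281 CPM in 349 cells). In Tumor1 Col28a1 stood at 49.9, 218 and 104 CPM, the regressed value resting on 33 UMIs in 61 cells. Col23a1, a membrane-spanning chain, stood at 46.7, 37.5 and 22.6 CPM in stroma. The other members, each with 32 to 484 UMIs in all, are drawn in the map of all 40 genes.

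Tumor cells carried the other collagens, a class that includes Col20a1, at 6.83, 3.67 and 6.11 times the immune level. Basement membrane chains were above the immune level too. The class summed to 1508, 1399 and 1971 CPM in untreated, regressed and progressed tumor cells, 4.37, 3.67 and 5.66 times the immune level, with Col18a1 at 546, 523 and 551 CPM and Col4a2 at 443, 279 and 594 CPM. Their fibrillar sums, 3380, 3408 and 4989 CPM, were 1.38, 1.81 and 2.15 times the immune level. Col5a3 stood at 311, 279 and 298 CPM in tumor cells. The regressed value pools 2 unlike clusters. In Tumor1 Col5a3 stood at 367, 801 (665 to 957, in 61 cells) and 301 CPM, and in regressed Tumor2 at 101 CPM in 349 cells.

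A few chains stood out in cells other than stroma, and did so in all 3 tumors. Col20a1 (Entrez 73368, chr2:180983323-181017545), a FACIT chain, lay mostly in tumor cells. In Tumor1 it stood at 1650 CPM (1485 to 1828) in the untreated, 828 (689 to 986) in the regressed and 1432 (1352 to 1516) in the progressed tumor. Tumor cells held 80.7% of its UMIs. In stroma it stood at 2.13, 15.3 and 3.30 CPM and in immune cells at 3.78, 16.97 and 7.64 CPM, so its stroma level was no higher than the immune level. The 6 melanoma markers summed to 3793, 3408 and 5249 CPM in tumor cells, and the 4 Schwann cell markers to 1697, 1460 and 1670 CPM. Neural crest gives rise to both melanocytes and Schwann cells. Col20a1 is itself among the leading genes of Tumor1. Tumor2, with 349 regressed cells at a median of 768 UMIs, had a Col20a1 level of 288 CPM. After thinning to 1000 UMIs, Col20a1 had a UMI in 57.8% of 45 tumor cells in the untreated library, 32.5% of 166 in the regressed one and 68.4% of 155 in the progressed one, and in at most 2.80% of immune cells.

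Col17a1 (Entrez 12821, chr19:47646341-47692042) is a membrane-spanning chain of hemidesmosomes, which hold basal keratinocytes to their basement membrane. In Undefined1 it stood at 424, 437 and 311 CPM in untreated, regressed and progressed cells, and in Undefined2 at 523, 343 and 487 CPM. The same clusters carried the keratinocyte gene Krt14 at 4953 to 7719 CPM in Undefined1 and at 12110 to 18990 CPM in Undefined2. The Dividing cluster held it at 145, 126 and 76.5 CPM. In stroma Col17a1 was 2.27, 10.3 and 3.92 CPM, against 3.55, 9.003 and 5.65 CPM in immune cells.

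Col27a1 (Entrez 373864, chr4:63214009-63334991), a fibrillar chain best known from cartilage, stood at 677 CPM (442 to 992) in untreated, 503 (409 to 613) in regressed and 729 (555 to 940) in progressed cytolytic NK and T cells. These are the NK_T_Cytolytic cells, whose leading genes include Prf1, Nkg7 and Cd3e. The clusters held only 15, 58 and 24 cells, and 26, 98 and 59 UMIs of the gene. In the other lymphocyte cluster, NK_T, Col27a1 stood at 0 CPM (up to 30.5), 11.1 CPM and 0 CPM (up to 37.9). After thinning, it had a UMI in 6 of 14, 24 of 56 and 12 of 24 cytolytic cells, beside 0 of 25 and 0.595% of 168 NK_T cells in the untreated and regressed tumors, 0 of 25 allowing a share of up to 13.7% (exact binomial). The intervals of cytolytic cells in the 3 tumors overlapped. In stroma Col27a1 was 54.0, 31.3 and 32.9 CPM and in tumor cells 125, 124 and 166 CPM, with 127, 324 and 168 CPM in Tumor1. Col13a1, a membrane-spanning chain, stood at 66.8, 97.9 and 140 CPM in blood vessel cells, which held 39.9% of its 238 UMIs. The far more numerous stroma cells held 54.6% of them, at 2.77 to 4.20 CPM.

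**Figure D3:**
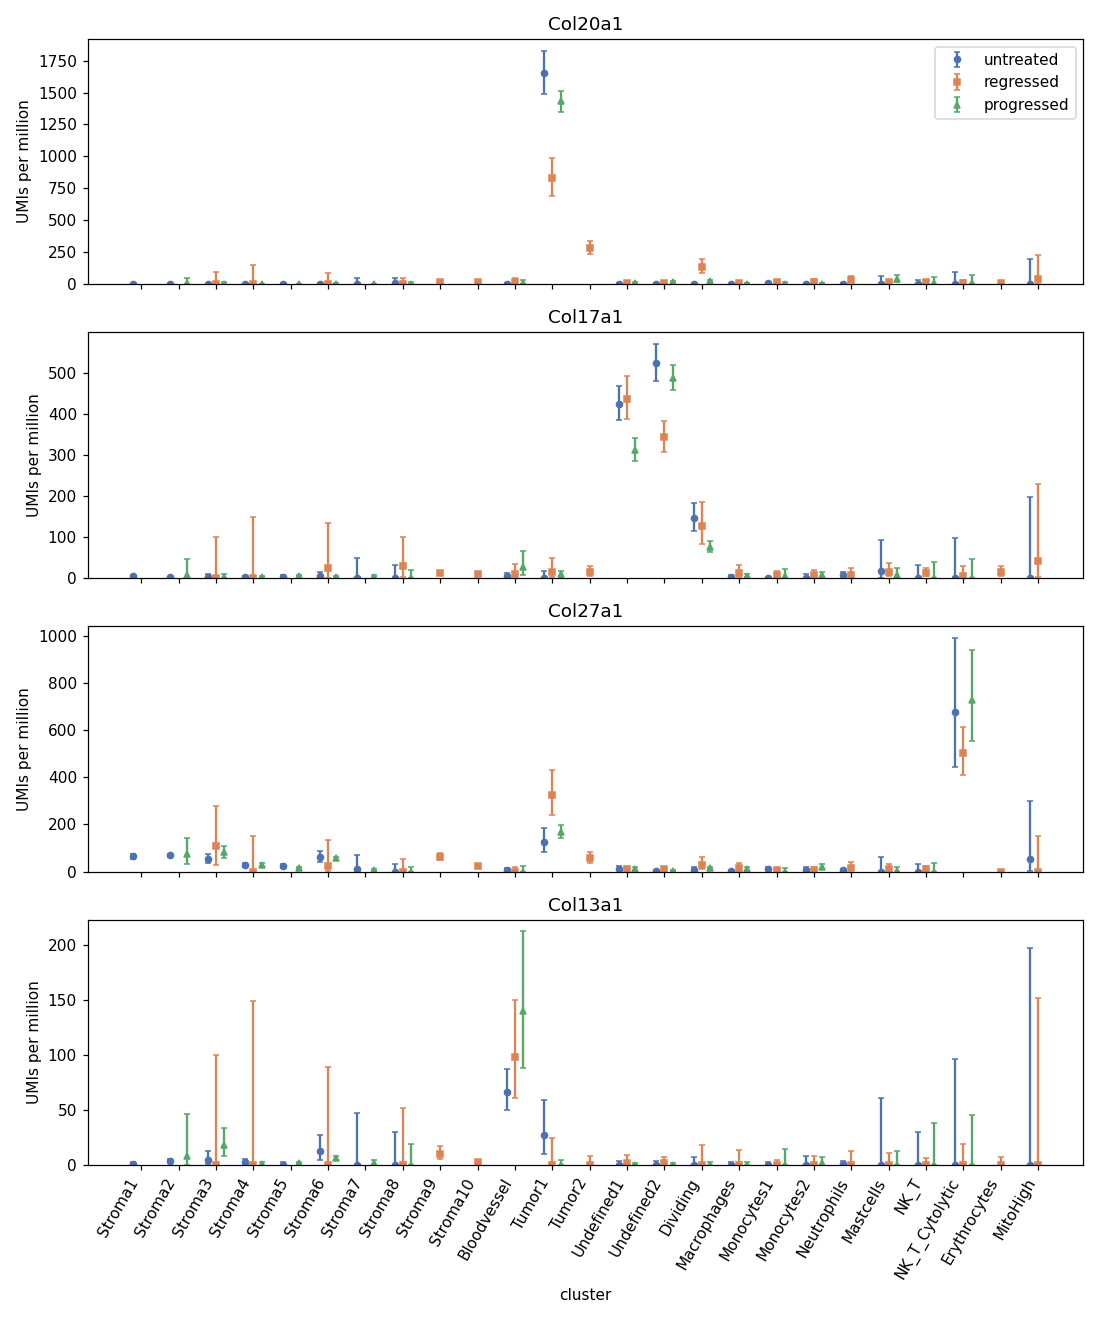
CPM of Col20a1, Col17a1, Col27a1 and Col13a1 in each cluster with at least 10 cells, with 95% counting intervals, in the 3 tumors. Col20a1 rises in Tumor1, Col17a1 in Undefined1 and Undefined2, Col27a1 in NK_T_Cytolytic and Col13a1 in Bloodvessel, each in all 3 tumors.

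Counted by size over all stroma, collagens were more often low than high in the regressed tumor. Of 36 members with at least 20 UMIs in both stroma sums together, 6 were lower by 2-fold or more in regressed than in untreated stroma (Col12a1, Col9a2, Col26a1, Col14a1, Col6a5 and Col4a2), where 7.09% of all 14791 genes tested were. Higher by 2-fold or more were 3 (Col20a1, Col17a1 and Col4a4), where 13.7% of all genes were. Col20a1 and Col17a1 stood at 15.3 and 10.3 CPM there, against 16.97 and 9.003 CPM in the immune cells of that tumor. The median log2 ratio of the members was -0.55, beside 0.14 for all genes. Without Stroma10, 8 were higher and 6 lower. Under TMM scaling 15 were lower and 2 higher. The shares of all genes past 2-fold under these alternatives were not counted, so these counts have no base to be read against.

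For progressed against untreated stroma, 38 members were counted. Higher by 2-fold or more were 3 (Col9a2, Col8a2 and Col9a1), where 3.57% of 15068 genes were, and lower was 1 (Col23a1), where 5.7% were. The median was 0.12, beside -0.06 for all genes. Col9a1 was sparse, at 1.19 against 0.355 CPM, and with a minimum of 50 UMIs only Col8a2 and Col9a2 were higher by 2-fold or more. The class of other collagens had sums of 4327, 3430 and 4742 CPM, so that its log2 ratio was -0.33 (-0.36 to -0.31) in regressed and 0.13 (0.12 to 0.15) in progressed stroma. Without Stroma10 the regressed value was 0.65.

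**Figure D4:**
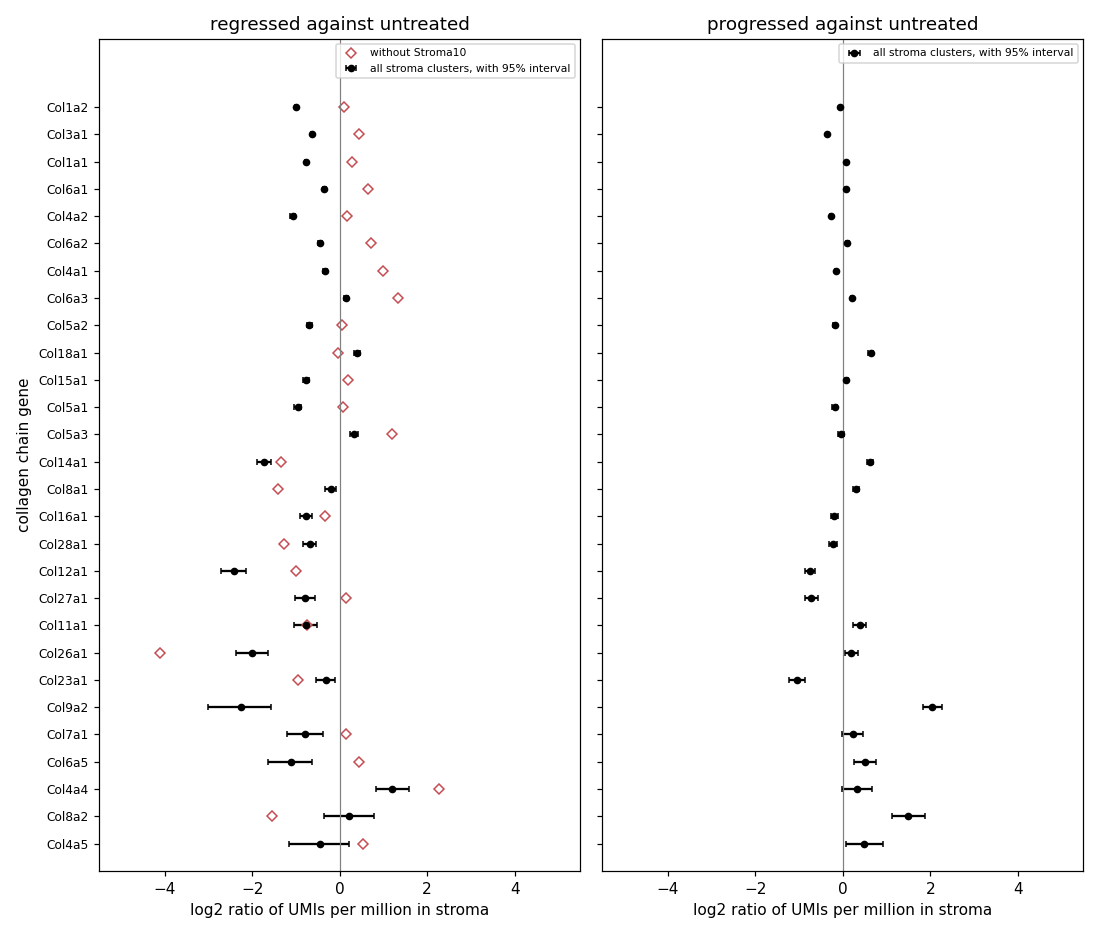
Log2 ratio of CPM in stroma for the 28 collagen genes with at least 200 stroma UMIs, regressed (left) and progressed (right) against untreated, with 95% counting intervals (black) and, on the left, the value without Stroma10 (open diamonds). Most black points on the left lie below 0 (Col1a1 at -0.77) and most diamonds above 0 (Col1a1 at 0.28), while on the right most points lie near 0.

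Ratios between chains, which do not depend on the total, also differed between the tumors. The ratio of Col3a1 to Col1a2 UMIs in stroma was 1.057 (1.05 to 1.065) untreated, 1.36 (1.34 to 1.38) regressed and 0.864 (0.858 to 0.870) progressed. In immune cells of the same tumors it was 0.995, 1.40 and 0.795, and in vessel cells 0.991, 1.32 and 0.866. In every one of the 17 clusters with enough UMIs the progressed ratio was below the untreated one, and in 12 of 15 the regressed ratio was above it, the exceptions being Dividing, Mastcells and Stroma8. Clusters of a tumor share 1 library and are not repeats of the contrast. The part of free RNA in the ratios outside stroma was not tested. Tumor cells had their own value, 2.27, 1.59 and 1.07, with 4.03 in regressed Tumor1.

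The ratio of Col4a1 to Col4a2 was 0.886 (0.868 to 0.904) in untreated, 1.48 (1.42 to 1.54) in regressed and 0.957 (0.938 to 0.976) in progressed stroma. It was 0.920 (0.832 to 1.02), 1.47 (1.16 to 1.88) and 0.900 (0.688 to 1.18) in vessel cells, and 0.893, 1.23 and 1.06 in immune cells. In tumor cells it was 0.633, 1.22 and 0.732. The regressed ratio was thus the highest in each of the 4 kinds of cells, although its interval overlapped the progressed one in immune cells (1.05 to 1.43 against 0.913 to 1.23) and in vessel cells. It exceeded the untreated one in all 5 clusters with at least 100 UMIs of the pair in both tumors, of which only Stroma6 was of stroma. The other shared stroma clusters fell short of that. Col4a1 and Col4a2 had 27 and 30 UMIs in regressed Stroma3 (839 and 924 untreated) and 8 and 14 in regressed Stroma4 (1022 and 1244 untreated). In regressed Stroma8 they had 29 and 14 (108 and 88 untreated). The regressed ratio was 1.35 in Stroma10 and 1.59 in Stroma9, so it did not rest on Stroma10 alone. Thinning and leaving out the deepest 5% of cells moved the stroma ratios to between 0.893 and 0.895 (untreated), 1.46 and 1.49 (regressed) and 0.963 and 0.970 (progressed). Col1a1 to Col1a2 was 0.637, 0.748 and 0.705 in stroma.

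**Figure D5:**
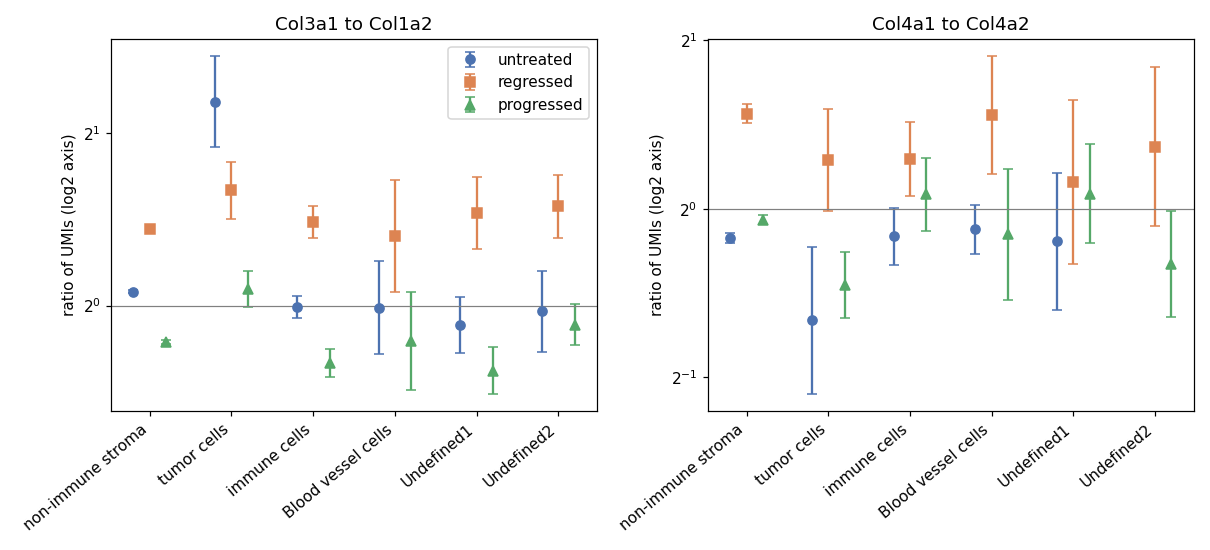
Ratio of UMIs of Col3a1 to Col1a2 (left) and of Col4a1 to Col4a2 (right) by kind of cell and tumor, on a log2 axis with 95% counting intervals. The regressed ratios lie above those of the other tumors in stroma, immune and vessel cells on both sides, while on the left the untreated tumor cells lie highest.

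Genes that process collagen were read with the same 2-fold rule, which 13.7% of all genes passed as higher and 7.09% as lower in regressed against untreated stroma. Of 18 genes for hydroxylation, folding and export of procollagen, 2 were higher by 2-fold or more in regressed than in untreated stroma (P3h2, 4.98 against 0.497 CPM, and Colgalt2, 19.5 against 4.40 CPM) and 1 was lower (P4ha3, a proline hydroxylase subunit, 1 UMI, 0.156 against 3.69 CPM, log2 -4.57 with an interval of -9.90 to -2.03), with a median log2 ratio of -0.04. Serpinh1, the collagen chaperone, stood at 1183 CPM untreated, 1053 regressed and 1573 progressed, and P4hb, the shared subunit of proline hydroxylases, at 412, 252 and 339 CPM. Of the genes for propeptide removal, 7 were counted, 2 were lower (Adamts3 and Bmp1, the procollagen C-proteinase, 153 against 76.1 CPM) and 1 was higher (Pcolce2, log2 1.17). None of 7 collagen receptors and uptake genes passed 2-fold. Itgb1, the shared integrin beta chain, had the highest value (331 to 597 CPM, log2 0.85) and Itga11 the lowest (-0.93). Among 8 basement membrane partners Lama5 was higher (5.29 against 1.99 CPM, log2 1.41), while Nid1, which links laminin to type IV collagen, stood at 650, 386 and 479 CPM.

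In progressed against untreated stroma, where 3.57% of all genes were higher and 5.7% lower, these 4 lists held 1 gene of 18 past 2-fold upward (P3h2, 1.02 against 0.497 CPM, log2 1.04 with an interval of -0.29 to 2.54, which holds 0), 1 lower of 8 (Tll1), none of 7, and 1 lower of 8 (Lama5, 0.796 against 1.99 CPM). Their medians were 0.09, -0.02, 0.01 and -0.17.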

How the data were processed

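UMI counts per gene and cell were deposited by the authors for 3 libraries (10x, 3' ends), beside cell labels with the authors' clusters. Per the study's methods, reads were aligned with GSNAP to GRCm38, unique reads overlapping exons in sense were kept, UMIs were collapsed with 1 mismatch allowed, and cells with few UMIs were left out. The submitters' processing notes also name Seurat 2.2.0. The annotation release is not given in the sources used here. No value was normalized before deposit, and the tables summed to 4.42% to 6.09% more UMIs than the deposited cell totals.

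Entrez IDs were matched to RefSeq symbols (31049 of 36530 features, with 3.75% of UMIs in unmatched ones). Identical rows occurred in 34 sets of features, none with a collagen. Counts were summed by cluster and tumor with Python 3.11.15, numpy 2.4.6, scipy 1.17.1 and pandas 2.3.3, divided by all UMIs of those cells and given per 1000000 (CPM). Intervals are exact at 95% and cover counting error only, since UMIs of 1 cell are not independent. A level at 0 was given with its upper limit and no fold, and a ratio with 1 to 3 UMIs on a side with its interval. There were no replicates, so no group was tested. Members and lists were chosen with earlier results of these data known. Members with 500 or more UMIs were named with levels and, with 200 or more in stroma, with ratios. Ratios were called at 2-fold among genes with 20 or more UMIs over both sums. Alternatives were TMM scaling (edgeR 4.0.16 in R 4.3.3, size factors only), the deposited totals, equal weight per cell, thinning to 1000 UMIs, leaving out the deepest 5% of cells or Stroma10, a mean over 4 shared clusters, another minimum and, chosen after seeing the data, subtraction of the immune level. No doublet caller was run. The genotype of the mice is not reported here in full. Interval code was tested on simulated data.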

Additional observations from a re-analysis of the deposited data

Results flagged for a closer look

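In 5 cases a collagen class had a log2 ratio of one sign in a kind of cell and of the other sign in stroma of the same tumors. Each is a contrast of 1 library with 1 library, and the difference was not tested. The stroma sign itself turned in all 5 under an alternative: regressed fibrillar and other collagens were 0.29 and 0.65 without Stroma10, and progressed fibrillar and basement membrane collagens 0.0871 and 0.16 over the 4 shared clusters. In regressed against untreated blood vessel cells the fibrillar chains had a log2 ratio of 1.34 where stroma had -0.78, and the other collagens 1.60 where stroma had -0.33. In progressed against untreated vessel cells the fibrillar chains had 2.06 where stroma had -0.14. The vessel sums of fibrillar chains were 845 CPM untreated, 2131 regressed and 3534 progressed, 0.346, 1.13 and 1.53 times the immune level of the same tumor, and vessel cells had medians of 9089, 3504.5 and 4089.5 UMIs. The 14 stroma markers moved with them, at 774 CPM in untreated, 2859 in regressed and 2108 in progressed vessel cells, with 2 or 3 of them at 0 (Dcn at 492, 1982 and 1102 CPM). Keratinocyte markers summed to 145, 1115 and 210 CPM and mast cell markers to 21.8, 443 and 57.3 CPM in the same cells. The part of these markers and of depth in the result was not tested.

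In progressed against untreated tumor cells the fibrillar chains had a log2 ratio of 0.56 where stroma had -0.14, and the basement membrane chains 0.39 where stroma had -0.07. The tumor cells numbered 48 in the untreated and 160 in the progressed library.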

How the results depend on the processing

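No paired analysis was possible because each group is 1 tumor and no result came from a test, and no replicate could be left out for the same reason. Values are log2 ratios to untreated stroma. The fibrillar ratio of regressed stroma, -0.78, was -1.03 with TMM scaling, -0.80 with the deposited totals, -0.90 with equal weight per cell, -0.89 after thinning, -0.95 without the deepest 5% of cells, -0.27 over the 4 shared clusters, 0.29 without Stroma10 and -0.82 after subtracting the immune level. The basement membrane ratio, -0.54, was in the same order -0.78 (TMM), -0.66, -0.62 and -0.66 (cell weighting, thinning, deepest cells), -0.60 over shared clusters, 0.52 without Stroma10, -0.64 after subtraction and -0.67 for type IV chains alone. The ratio of other collagens, -0.33, was -0.58 (TMM), -0.38, -0.40 and -0.40, then -0.22 over shared clusters, 0.65 without Stroma10 and -0.44 after subtraction. For progressed stroma the fibrillar ratio, -0.14, was -0.0757 (TMM), -0.15 (deposited totals), -0.20, -0.21 and -0.17, and 0.0871 over shared clusters. The basement membrane ratio, -0.07, was -0.0066 (TMM), -0.0428 (thinned), -0.0477 (deepest cells left out), 0.16 over shared clusters and -0.21 for type IV alone. That of other collagens, 0.13, was 0.19 (TMM), 0.16 (thinned) and 0.25 over shared clusters. In vessel cells the type IV ratio of regressed to untreated, -0.57, was -0.77 with TMM, and that of progressed, -0.48, was -0.86 with equal weight per cell and -1.54 after thinning. TMM scaling moved every stroma ratio by -0.25 (regressed) or 0.06 (progressed). The 3 members higher by 2-fold in regressed stroma became 5 with a minimum of 1 UMI and 8 without Stroma10. The 6 lower became 15 with TMM, and the 1 lower in progressed stroma became 0, with no p-value behind any of these counts. The share of all genes past 2-fold was counted in the main setting only.

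Of 370 gene values under alternatives, 201 stayed within the counting interval, 139 moved beyond it and 30 changed sign. A change of sign was counted only where the main interval held no 0, so other values that crossed 0 are not among the 30. Col8a2 was one, at 6.54 CPM in regressed against 5.61 in untreated stroma but lower by 2-fold or more without Stroma10. The 30 were as follows. Without Stroma10 the regressed ratios turned to 0.10 for Col1a2, 0.45 for Col3a1, 0.28 for Col1a1, 0.64 for Col6a1, 0.17 for Col4a2, 0.71 for Col6a2, 0.998 for Col4a1, 0.0479 for Col5a2, -0.0287 for Col18a1, 0.18 for Col15a1, 0.0666 for Col5a1, 0.14 for Col27a1, 0.13 for Col7a1 and 0.44 for Col6a5. Over the 4 shared clusters they turned to -0.00544 for Col6a3, -0.13 for Col18a1, -0.43 for Col5a3 and 1.27 for Col8a1, and in progressed stroma to 0.15 for Col1a2, 0.11 for Col4a1, 0.10 for Col5a2, 0.0737 for Col5a1, -0.75 for Col14a1, 0.0412 for Col16a1 and -0.0353 for Col6a5. TMM turned Col6a3 to -0.10 in regressed stroma. With equal weight per cell and after thinning, Col1a1 in progressed stroma was -0.0104 and -0.0242, and Col8a1 in regressed stroma 0.10 and 0.17. The causes were not tested. Col9a2 had no regressed value without Stroma10. Clusters with 12 to 20 regressed cells limit the shared-cluster values.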

Other observations

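Among neighbouring collagen genes, log2 levels over the 21 stroma cluster and tumor sums had a Pearson r of 0.98 for Col6a1 and Col6a2 (85161 bases apart), 0.91 for Col4a1 and Col4a2 (85 bases shared), 0.90 for Col3a1 and Col5a2 (24624 bases apart), 0.61 for Col4a3 and Col4a4 (114 bases shared) and 0.25 for Col4a5 and Col4a6 (1274 bases apart). The pairs with the lowest r were sparse, at 220 and 484 UMIs for Col4a3 and Col4a4 and at 324 and 80 for Col4a5 and Col4a6. Among the others r did not follow the number of UMIs. The type VI pair held 57133 and 47970, and Col3a1 and Col5a2 held 387622 and 28462. The sums share libraries.

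The Col6a3 to Col6a1 ratio in stroma was 0.646 untreated, 0.911 regressed and 0.709 progressed, while Col6a2 to Col6a1 was 0.845, 0.791 and 0.860. The Dividing cluster held Col1a2 at 2117, 641 and 6801 CPM in 43, 75 and 147 cells. It mixes several kinds of cells, with Krt14 at 2611, 8281 and 1882 CPM.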
